A study of Mus musculus with 28 samples.

Results

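The genes described here are the zinc finger genes with a numbered Zfp symbol on mouse chromosomes 1, 3, 5, 6, 11, 14, 15, 16, 18 and 19. A gene was included where its symbol in the RefSeq table of build GRCm38.p6 was Zfp followed by a number and at most 1 letter. This gave 103 of 49554 genes on chromosomes 1 to 19 and X, and left 296 other numbered Zfp genes on the remaining chromosomes. Of the 103 genes, 21 lay on chromosome 11, 19 on chromosome 5, 18 on chromosome 6, 12 on chromosome 15 and 11 on chromosome 18. The table listed 101 as protein-coding, Zfp783 as a long non-coding RNA gene and Zfp572 as a transcribed pseudogene.

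Most of these genes encode proteins with a row of zinc fingers, small folds that each read a few bases of DNA. In a large subfamily a KRAB domain recruits the corepressor TRIM28, which brings the methyltransferase SETDB1 to the bound site, where it trimethylates lysine 9 of histone H3 (H3K9me3). Zinc finger genes are also known as places where H3K9me3 itself is found, often over the 3' exons that encode the fingers. Whether a given protein carries a KRAB domain was not analysed here.

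The study mapped H3K9me3 and acetylation of the same lysine (H3K9Ac, a mark of active promoters) by immunoprecipitation of chromatin cut with micrococcal nuclease, followed by sequencing. The cells were mouse B16OVA melanoma cells, called B16 here, and mouse MC38 colon adenocarcinoma cells. Both lines had been transduced with pCRISPR-v2-puro and kept in puromycin; the vector was empty in controls and carried a guide against Setdb1 in the knockout (KO) cells. Each line, genotype and mark had 3 numbered libraries, 24 in all. The labels do not say whether the libraries came from separate cultures or whether the KO cells were a clone, so p-values measure only the spread between these libraries.

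The files list islands, stretches of enriched 200 bp windows, with the reads in each. The 12 H3K9me3 libraries held 15200766 to 45419584 island reads over 215.4 to 563.4 Mb, and the 12 H3K9Ac libraries held 28453371 to 78087809. Both H3K9me3 extremes of covered length were MC38 KO libraries, replicate 3 at 215.4 Mb and replicate 1 at 563.4 Mb. H3K9Ac over 7 melanocyte genes summed to 959 to 1579 reads per 1000000 counted reads (RPM) in B16 control and 205 to 285 RPM in MC38 control libraries, where Tyr, Tyrp1 and Dct had no island. Over 7 gut and simple epithelium genes the sums were 125 to 168 RPM in B16 and 142 to 177 RPM in MC38 control libraries, and Krt20 was at 0 in at least 1 library of both lines. Leukocyte genes summed to 29.9 to 47.0 RPM in B16 and 37.8 to 41.5 RPM in MC38 controls, and Cd3e had no island in MC38 controls. Fibroblast genes summed to 175 to 194 and 122 to 155 RPM; any part of other cells in the results was not tested. H3K9Ac over Setdb1 was 76.6 ± 5.06 RPM in B16 controls against 78.8 ± 8.98 RPM with B16 KO (SD, n = 3). In MC38 it was 96.2 ± 7.73 and 111 ± 5.24 RPM, with every KO library above every control (edgeR adjusted p = 1). These values do not check the knockout.

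Start windows of 300 bases (250 before to 50 after the annotated start) were available from RefSeq, build GRCm38.p6, for 75 of the 103 genes. The 6 printed here carry the contrasts described below, with CG dinucleotides in capitals, 5' to 3' on the strand of the gene. Zfp422, at chr6:116628652-116628951 on the minus strand, Zfp2, at chr11:50916127-50916426 on the minus strand, and Zfp354b, at chr11:50931586-50931885 on the minus strand, are shown because H3K9Ac covered the window in all 3 control and all 3 KO libraries of B16 and in no MC38 library.
Zfp422: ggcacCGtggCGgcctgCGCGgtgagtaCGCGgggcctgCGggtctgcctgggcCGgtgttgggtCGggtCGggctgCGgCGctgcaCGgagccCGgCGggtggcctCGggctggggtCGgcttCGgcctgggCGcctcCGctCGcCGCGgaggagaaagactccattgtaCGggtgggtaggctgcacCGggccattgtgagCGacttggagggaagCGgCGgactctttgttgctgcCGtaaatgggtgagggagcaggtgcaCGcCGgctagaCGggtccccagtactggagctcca
Zfp2: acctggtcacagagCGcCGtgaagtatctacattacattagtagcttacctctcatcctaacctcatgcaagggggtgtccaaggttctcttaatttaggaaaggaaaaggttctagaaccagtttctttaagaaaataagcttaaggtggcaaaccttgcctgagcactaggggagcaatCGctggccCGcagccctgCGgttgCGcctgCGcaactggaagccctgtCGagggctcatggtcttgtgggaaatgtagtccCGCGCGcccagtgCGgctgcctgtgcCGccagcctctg
Zfp354b: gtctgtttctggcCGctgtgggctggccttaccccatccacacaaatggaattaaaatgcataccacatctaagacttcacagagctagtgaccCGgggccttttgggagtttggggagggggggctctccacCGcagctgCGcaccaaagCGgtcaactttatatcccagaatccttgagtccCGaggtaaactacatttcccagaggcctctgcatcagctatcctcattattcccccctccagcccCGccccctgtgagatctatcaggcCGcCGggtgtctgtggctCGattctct

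Zfp783, at chr6:47942925-47943224 on the plus strand, is shown because H3K9Ac covered its window in no B16 control library, 1 B16 KO library and all 6 MC38 libraries.
Zfp783: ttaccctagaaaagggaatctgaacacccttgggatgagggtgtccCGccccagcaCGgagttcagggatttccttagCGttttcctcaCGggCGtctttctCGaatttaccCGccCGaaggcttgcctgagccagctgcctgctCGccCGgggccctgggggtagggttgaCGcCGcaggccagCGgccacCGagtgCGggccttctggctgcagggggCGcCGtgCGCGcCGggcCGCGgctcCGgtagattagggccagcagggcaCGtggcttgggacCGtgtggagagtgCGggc

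Zfp879, at chr11:50841503-50841802 on the minus strand, and Zfp454, at chr11:50887461-50887760 on the minus strand, are shown because H3K9me3 lay on the start itself in B16. It covered the Zfp879 window in 3 of 3 control and 1 of 3 KO libraries, and the Zfp454 window in 2 of 3 control and 3 of 3 KO libraries. Neither window carried H3K9Ac in any library.
Zfp879: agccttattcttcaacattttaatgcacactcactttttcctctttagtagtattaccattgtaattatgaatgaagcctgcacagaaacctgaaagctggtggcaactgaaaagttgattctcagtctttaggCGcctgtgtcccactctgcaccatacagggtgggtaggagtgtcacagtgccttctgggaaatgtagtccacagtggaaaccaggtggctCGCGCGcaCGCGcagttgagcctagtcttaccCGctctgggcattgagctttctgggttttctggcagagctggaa
Zfp454: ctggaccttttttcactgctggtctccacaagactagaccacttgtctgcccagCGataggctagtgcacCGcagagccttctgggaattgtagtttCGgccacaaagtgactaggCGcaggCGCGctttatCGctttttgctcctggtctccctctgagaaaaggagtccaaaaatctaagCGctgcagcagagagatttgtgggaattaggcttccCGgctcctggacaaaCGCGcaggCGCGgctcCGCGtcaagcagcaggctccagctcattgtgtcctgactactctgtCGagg

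These windows differ widely in CG content. The window of Zfp422 held 32 CG dinucleotides, that of Zfp783 held 26, and those of Zfp454, Zfp2, Zfp354b and Zfp879 held 16, 13, 10 and 7. Over the 75 windows the median was 17 CG against 7 over all 26794 windows of the table, and 78.7% held at least 10 CG against 44.3%. An ETS core (CCGGAAG, either strand) occurred in 20% of the 75 windows and in 9.21% of all windows. The YY1 core AAGATGGCG occurred in 5.33% and 1.48%, and the NFY box CCAAT in 41.3% and 38.2%. The melanocyte M-box TCATGTG occurred in none of the 75 windows and in 3.74% of all windows. The E-box CACGTG, which does not contain the M-box, occurred in 4% and 7.3%; of the 6 windows printed here, that of Zfp783 holds it.

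H3K9Ac was nearly general over these genes and H3K9me3 was not. Regions were counted from gene start to gene end with 2 kb on both sides. An H3K9Ac island lay in all 12 libraries for 88 of the 103 genes and in no library for 1, Zfp735. An H3K9me3 island lay in all 12 libraries for 11 genes and in no library for 38. In B16 control 27 genes had H3K9me3 in all 3 libraries and 43 in none, against 22 and 56 in B16 KO, 18 and 62 in MC38 control, and 17 and 69 in MC38 KO libraries. By library, H3K9Ac lay at 88.35 to 97.09% of the 103 genes and 52.32 to 57.97% of all genes. For H3K9me3 these shares were 46.6, 46.6 and 36.89% in B16 control, against 33.45, 33.51 and 27.8% of all genes. In B16 KO they were 28.16, 34.95 and 37.86% against 28.34, 34.04 and 33.21%. In MC38 control they were 28.16, 34.95 and 25.24% against 24.03, 27.84 and 25.72%. In MC38 KO they were 22.33, 28.16 and 25.24% against 23.26, 27.9 and 18.97%. A gene without an island has no entry in the file, so a value of 0 means that no island was called there and not that no reads were present.

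Per kb of gene region, H3K9me3 was highest at Zfp286, with a mean of 5.42 RPM per kb over the 12 libraries. Zfp33b followed at 5.3, Zfp2 at 4.59, Zfp454 at 4.36, Zfp951 at 3.52 and Zfp68 at 3.48 RPM per kb. The lines ranked these genes differently. Zfp454 led in B16 control at 6.94 RPM per kb and had 2.33 in MC38 control, whereas Zfp33b led in MC38 control at 6.90 and had 4.5 in B16 control. The lowest values above 0 were at Zfp3, Zfp407 and Zfp236, at 0.00544, 0.00624 and 0.00983 RPM per kb. H3K9Ac was highest per kb at Zfp687, whose human homolog is mutated in a form of Paget's disease of bone, at 3.16 RPM per kb, then at Zfp513 at 2.83 and Zfp384 at 2.82. None of these 3 genes had an H3K9me3 island in any library. The same held for Zfp281 and Zfp148, related factors of which the first acts in pluripotent cells.

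Both marks often shared a gene but not the same bases. In B16 control 24 genes had both marks in all 3 libraries, against 17 in B16 KO, 12 in MC38 control and 11 in MC38 KO. On a 200 bp grid, with a base counted where at least 2 of the 3 libraries had an island, H3K9me3 covered 424 kb and H3K9Ac 1648 kb of the 4763 kb of regions in B16 control. Only 16.8 kb carried both, 3.96% of the H3K9me3 length, and the shared length was 0.6 kb in MC38 control libraries. H3K9me3 without any H3K9Ac was rare. In B16 control it occurred in all 3 libraries of Zfp735 alone, and in MC38 control in all 3 of Zfp454, Zfp2, Zfp354b and Zfp641.

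Along the 75 genes with a known strand the marks had opposite shapes. H3K9Ac peaked in bin 1 of 10 equal bins along the gene, at 2.57 ± 0.319 island reads per kb per 1000000 in B16 control and 2.15 ± 0.493 in MC38 control (SD, n = 3). Within the gene H3K9me3 was lowest there, at 0.150 ± 0.0612 in B16 control and 0.0377 ± 0.0316 in MC38 control. It was highest toward the 3' end, at 0.614 ± 0.0456 in bin 8 in B16 control and 0.449 ± 0.117 in bin 9 in MC38 control. Over protein-coding genes with a strand, the shortest left out, the B16 control H3K9me3 profile stayed between 0.183 and 0.238 within the gene. In B16 KO bin 8 of the zinc finger genes had 0.413 ± 0.0595 and bin 4 had 0.197 ± 0.0170, against 0.484 ± 0.0660 in bin 4 in control. These profiles carry no test. H3K9me3 reached over at least 150 bases of the start window in no library for 66 of the 75 genes and in all 12 libraries for none, whereas H3K9Ac did so in all 12 for 44 and in none for 12.

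**Figure D1:**
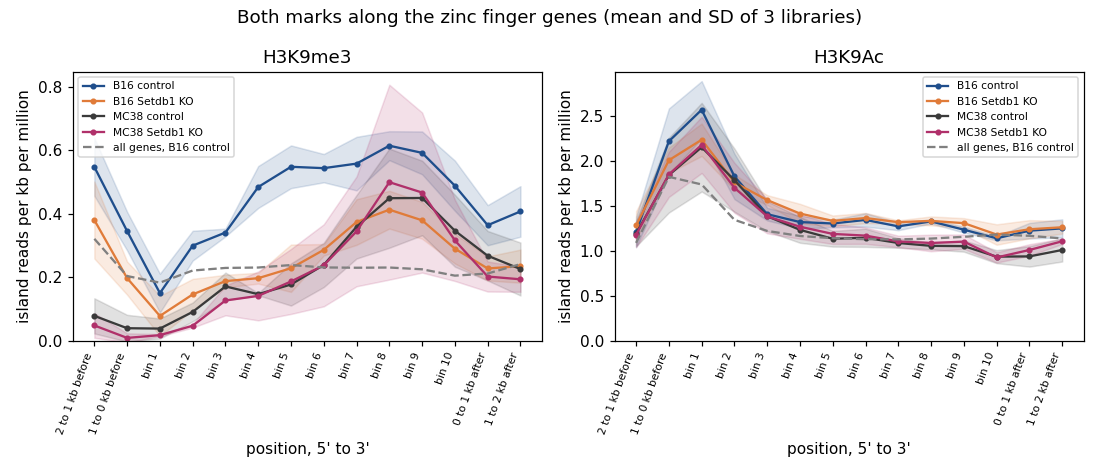
Mean island reads per kb per 1000000 along 75 zinc finger genes, from 2 kb before the start through 10 equal bins of the gene to 2 kb after the end, for H3K9me3 (left) and H3K9Ac (right). Bands are the SD of 3 libraries. The dashed line, labelled all genes, is the mean of protein-coding genes with a strand, the shortest left out, in B16 control. Within the gene H3K9me3 is lowest and H3K9Ac highest in bin 1 in all 4 groups.

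Setdb1 KO was compared with control in each line with edgeR's quasi-likelihood test over all gene regions with a mean of at least 10 island reads. Of the 103 genes, 56 entered the H3K9me3 test and 101 the H3K9Ac test. None passed an adjusted p of 0.05 for H3K9me3 in B16, where 0.164% of all 25677 regions were called higher and 0.148% lower, nor in MC38 (0.0117% and 0.125%). None passed for the difference between the lines in the KO effect (0.136% and 0.261%). At an unadjusted p under 0.05, no gene was higher (3.63% of all regions) and 4 were lower (4.1%) in B16 KO, and 1 was higher (2.7%) and 3 were lower (4.16%) in MC38 KO. With the 6 libraries of a line fitted alone these became 10 lower in B16 and 1 higher in MC38. The shares of all regions were not counted in that fit, so these 2 counts have no background. With DESeq2 at adjusted p under 0.05, 1 was higher (5.61%) and 5 were lower (4.56%) in B16 KO, and 2 were higher (3.68%) and 3 lower (5.12%) in MC38 KO; these shares lie near or below those of all regions apart from the 10.0% lower in B16. For the difference between the lines, 4 were higher in MC38 (3.94%) and 1 lower (5.44%) at an unadjusted p under 0.05, and DESeq2 called 5 (5.88%) and 3 (7.82%). With 1 library left out, at most 1 gene passed edgeR in either line.

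The libraries nevertheless stood in 1 order at many genes in B16. In 17 of the 56 tested genes (30.4%) every B16 KO library had less H3K9me3 than every control library, against 9.44% of all gene regions tested, and in none was every KO library higher (5.89% of all regions). Among the other numbered Zfp genes 89 of 192 (46.4%) lay lower, a larger share than here. Leaving out B16 control replicate 3 gave 26, but leaving out a library can only keep or raise this count. Keeping only islands with reads per kb above the median of their library (stricter islands) lowered the count to 9, all among the 17. The 10 of the 17 with an island in all 6 libraries and the 5 with 1 or 2 KO libraries at 0 kept islands in at least 1 KO library. For those 15 the KO mean was 0.173 to 0.624 of the control mean, a range that the choice of separated genes partly sets. Zfp438 and Zfp783 had no island in any B16 KO library. RPM is relative to the counted reads of its library. The H3K9me3 islands of the B16 KO libraries covered 430.9, 367.0 and 406.2 Mb, against 325.5, 325.5 and 284.9 Mb in controls. The part of covered length in this order of libraries was not tested.

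Zfp951 had the most H3K9me3 of the 17 genes. Its 3 B16 control libraries held 339, 185 and 220 RPM and its KO libraries 54.7, 83.2 and 136 RPM. The groups did not overlap, although KO replicate 3 lay much nearer the controls than replicate 1 did. The log2 difference was -1.44 ± 0.46 (SE; edgeR unadjusted p = 0.010, adjusted p = 0.51). In MC38 the same gene held 336, 275 and 336 RPM in controls against 190, 193 and 269 RPM with KO, again without overlap (log2 -0.54 ± 0.45, edgeR adjusted p = 1). Zfp950 was the only other gene that was lower without overlap in both lines, 2 of 56 in MC38 against 1.73% of all regions, with none higher (0.596%).

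Zfp950 held 235, 141 and 156 RPM of H3K9me3 in B16 control and 103, 57.0 and 103 RPM in B16 KO libraries. In MC38 it held 146, 98.7 and 114 RPM in controls against 89.7, 71.7 and 68.1 RPM with KO. The log2 differences were -1.02 ± 0.47 and -0.65 ± 0.46 (SE; edgeR adjusted p = 0.62 and 1). Its region also takes in part of Grk5, a receptor kinase gene. The MC38 pair of genes was not stable to the processing: 0 genes lay lower with DESeq2 size factors or without the flanks, and 1 with total reads as the scale. The count was 7 without MC38 control replicate 1, 6 without MC38 control replicate 3 and 4 without MC38 KO replicate 3. Leaving out a library can only keep or raise such a count, so these rises are no measure of stability.

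Zfp438 and Zfp35 had the smallest unadjusted p in B16. Zfp438 held 25.1, 25.2 and 48.6 RPM of H3K9me3 in B16 control and none in KO libraries (edgeR adjusted p = 0.32). Zfp35 held 26.8, 11.4 and 0 RPM in control and none in KO libraries, so that its groups met at 0. In MC38 KO both genes kept islands in all 3 libraries, at 12.4, 10.9 and 29.1 RPM for Zfp438 and 14.5, 23.2 and 41.8 RPM for Zfp35. The difference between the lines in the KO effect had an edgeR adjusted p of 0.41 for both. Without MC38 control replicate 3, Zfp438 passed in B16 with an edgeR adjusted p of 0.0438, and without B16 control replicate 3, Zfp35 passed with 0.0332.

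Restricting the B16 comparison to regions with H3K9me3 islands in all 6 libraries left 17 of the zinc finger genes, chosen without regard to the direction of change. Of these, 15 lay below 0 on the log2 scale, as did 49.8% of 7962 regions and 83.0% of 112 other numbered Zfp genes. The other 2 lay above (50.2% of all such regions). The median was -0.71 (log2 of RPM plus 0.5) against 0.00 over all such regions. By limma, 9 were lower at an unadjusted p under 0.05 (9.38% of all regions and 38.4% of the other numbered Zfp genes). None was higher (5.26%), and none was lower at an adjusted p under 0.05 (0.0251%). The highest were Zfp735 at 0.57 and Zfp286, at 0.00, which kept 259, 268 and 275 RPM in KO against 267, 301 and 237 RPM in control libraries. In MC38, 14 genes had islands in all 6 libraries, 11 of them below 0 (61.9% of 4679 regions), with a median of -0.22 against -0.11. By limma none of the 14 was higher (0.385% of all regions) or lower (0.727%) at an unadjusted p under 0.05. Scaling by total island reads shifted the B16 median of all regions to -0.175 and that of the zinc finger genes to -0.88, with 16 below 0.

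**Figure D2:**
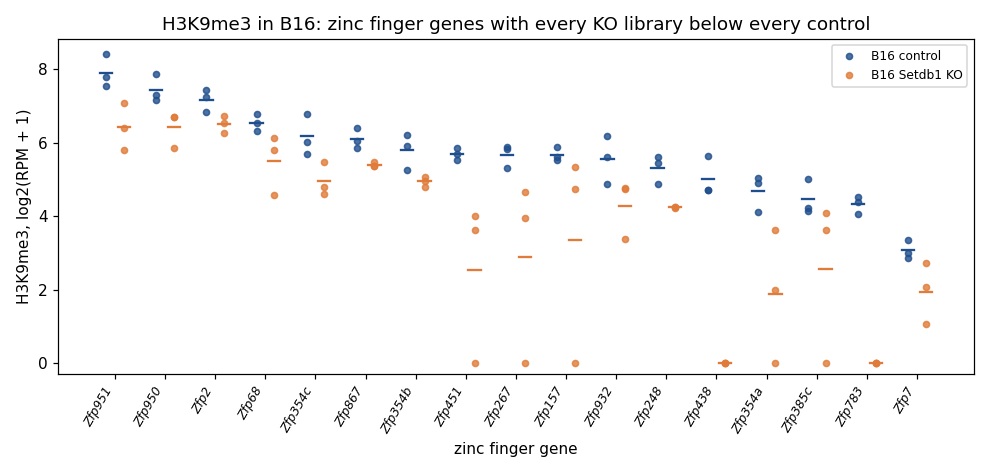
H3K9me3, as log2 of RPM plus 1, in each B16 control and Setdb1 KO library for the 17 zinc finger genes whose libraries did not overlap; points are libraries and bars their means. Zfp438 and Zfp783 sit at 0 in all 3 KO libraries.

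H3K9Ac lay higher in B16 KO at part of the same genes. In B16, 13 of 101 genes had more H3K9Ac in every KO than in every control library (12.9%, against 4.73% of 33363 regions) and 6 had less (5.94%, against 3.35%). Among the other numbered Zfp genes these shares were 10.0% and 2.6%. The H3K9Ac islands of the B16 KO libraries covered 448.3, 442.9 and 436.8 Mb, against 380.3, 382.3 and 423.4 Mb in controls. KO replicates 1 and 2 also held the most island reads of the B16 H3K9Ac libraries, 78087809 and 75667871. The part of coverage and depth in these counts was not tested. Stricter islands gave 5 higher, of which 3 were among the 13. The count of 13 became 24 without B16 control replicate 2. The count of 6 became 13 without B16 control replicate 3 and 11 without B16 KO replicate 2 or 3. With a library left out such counts can only stay or rise. No gene passed edgeR at an adjusted p of 0.05 in B16 (0.0629% of regions higher, 0.021% lower) or in MC38 (0.0839% and 0.042%), or for the difference between the lines (0.0959% and 0.0779%). At an unadjusted p under 0.05, 8 were higher (2.51%) and 2 lower (1.61%) in B16 KO, and 2 higher (1.81%) and 1 lower (1.31%) in MC38 KO. DESeq2 called 4 higher in B16, Zfp248, Zfp3, Zfp783 and Zfp867 (1.85% of regions), and 2 higher in MC38 (1.64%), and none lower in B16 (1.5%) or MC38 (1.23%). For the difference between the lines, 3 were higher in MC38 (2.25%) and 4 lower (2.02%) at an unadjusted p under 0.05, and DESeq2 called 2 (2.4%) and 3 (2.16%). In MC38, 3 genes lay higher without overlap (1.92% of regions) and 1 lower (1.87%); leaving out MC38 KO replicate 3 changed these to 16 and 7, MC38 control replicate 1 to 10 and 4, MC38 control replicate 3 to 6 and 5, MC38 KO replicate 2 to 6 and 4, and MC38 control replicate 2 to 3 and 4.

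Of the 17 genes with less H3K9me3 in B16 KO, 7 also had more H3K9Ac in every KO library: Zfp248, Zfp354a, Zfp354b, Zfp354c, Zfp7, Zfp783 and Zfp867. That is 41.2%, against 8.79% of the 2094 regions with less H3K9me3 over all genes. Among the other numbered Zfp genes it was 10 of 88 (11.4%) with less H3K9me3 and 9 of 85 (10.6%) without. Zfp354a, Zfp354b and Zfp354c lie in 1 cluster, described below. Of the 38 other genes of the set tested for both marks, 1, Zfp316, had more H3K9Ac without overlap (2.63%, against 3.48% of all such regions). The remaining genes with more H3K9Ac in every B16 KO library were Zfp12, Zfp3, Zfp39, Zfp395 and Zfp597. They had too few H3K9me3 island reads to be tested for that mark, so this contrast leaves them out. More H3K9Ac was thus not confined to genes with less H3K9me3. In MC38 neither of the 2 genes with less H3K9me3 had more H3K9Ac (1.63% of such regions over all genes). H3K9Ac of the whole set had a median log2 difference of 0.06 in B16 over 96 genes with islands in all 6 libraries, against -0.01 over all regions.

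Zfp783 had no H3K9me3 island outside B16 control. In B16 control its region held 22.1, 15.8 and 20.1 RPM of H3K9me3, and no island was called in any of the 3 KO libraries. Its H3K9Ac was 22.5, 22.9 and 25 RPM in controls against 33.9, 30.7 and 40.7 RPM with KO. All 3 KO libraries thus lay above all controls (log2 0.58 ± 0.12, edgeR unadjusted p = 0.00055, adjusted p = 0.44). MC38 had no H3K9me3 island at Zfp783 in any library, and its H3K9Ac stayed between 31.7 and 35.9 RPM in both genotypes, in the range of the B16 KO libraries.

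The position of the marks within Zfp783 differed in the same way. In B16 control H3K9me3 lay over bins 2 to 4 of the gene, at 2.07, 3.20 and 2.88 island reads per kb per 1000000, and H3K9Ac began only in bin 5. In the 3 B16 KO libraries bin 1 held H3K9Ac of 1.09, 0.792 and 2.77, although islands covered at least 150 bases of the start window in 1 of them only. In MC38 control the mean of bin 1 was 4.03. The start window printed above, with its 26 CG dinucleotides, had no H3K9Ac in B16 control. The 3' part of the region overlaps Zfp956, so the H3K9Ac there cannot be assigned to 1 gene. Reads were spread evenly over each island, so a bin value is a mean of its islands. In B16 KO replicates 1 and 3 every bin from bin 2 to 2 kb after the end held 2.42 and 2.77. These stretches run on into Zfp956, so their H3K9Ac in the 5' bins cannot be assigned to 1 gene either. In B16 KO replicate 2, bins 2 and 3 held 1.76 and bins 6 to 10 held 2.31.

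Zfp248 had B16 KO levels of H3K9Ac within the range of MC38 control; the KO and line comparisons share the B16 control libraries. Its B16 control libraries held 25.5, 22.1 and 25.3 RPM, its KO libraries 37.3, 40.6 and 43.3 RPM and its MC38 control libraries 49.5, 36.9 and 46.0 RPM of H3K9Ac. All B16 KO libraries lay above all B16 controls (log2 0.73 ± 0.15, edgeR unadjusted p = 0.00062, adjusted p = 0.47), but with stricter islands the log2 difference was 0.0072. H3K9me3 at the same gene was 47.9, 42.3 and 28.3 RPM in B16 controls against 18, 18 and 17.8 RPM with B16 KO. In MC38 it was 26.7, 19.2 and 0 RPM in control and absent from the islands of all 3 KO libraries (edgeR adjusted p = 0.43, and 0.0289 without MC38 control replicate 3). The KO effect on H3K9Ac differed between the lines at an unadjusted p of 0.0053 for Zfp248 and 0.0037 for Zfp783 (edgeR adjusted p = 0.90 for both).

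Zfp867 and Zfp7 followed the same order in B16. H3K9Ac at Zfp867 was 15.8, 18.7 and 9.82 RPM in controls against 20.7, 36.6 and 26.6 RPM with KO. H3K9me3 there was 83.1, 57.0 and 65.2 RPM in controls against 40.2, 40.2 and 43.2 RPM with KO. Part of Jmjd4 lies in the Zfp867 region. At Zfp7, H3K9Ac was 21.3, 18 and 29.6 RPM in B16 controls against 34.7, 46.4 and 31.7 RPM with KO, and it was also higher in every MC38 KO library, at 51.7, 28.3 and 25.3 against 20, 18 and 19.8 RPM. Its H3K9me3 was low, 6.26 to 9.21 RPM in B16 control and 1.09 to 5.59 RPM in KO, and no MC38 library had an island. Zfp7 thus had higher H3K9Ac in both KO lines but H3K9me3 in B16 only. Zfp3 and Zfp12 had more H3K9Ac in every B16 KO library with little or no H3K9me3 in any library: Zfp3 went from 17.4, 15.6 and 12.1 to 24.7, 23.9 and 25.8 RPM (edgeR adjusted p = 0.71).

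**Figure D3:**
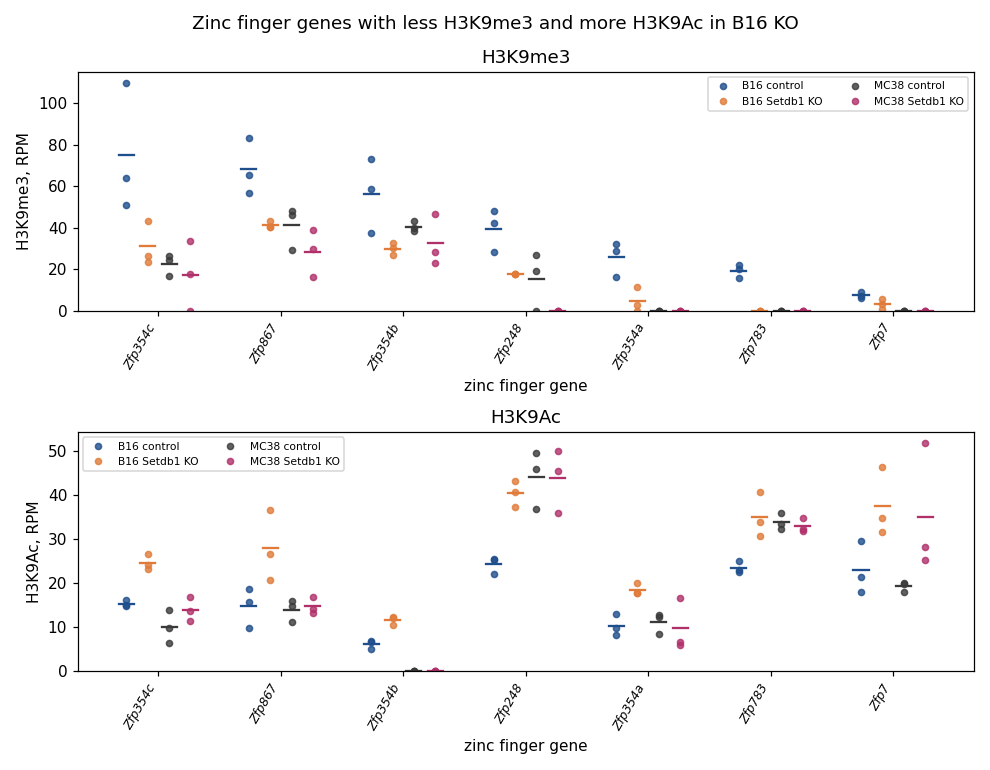
H3K9me3 (top) and H3K9Ac (bottom), in RPM, for the 7 zinc finger genes with less H3K9me3 and more H3K9Ac in every B16 KO library, shown in all 4 groups; points are libraries and bars their means. The genes were chosen on the B16 values, and Zfp783 has no H3K9me3 in the other 3 groups.

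The remaining 3 of the 7 genes belong to 1 cluster. Zfp354c, Zfp879, Zfp454, Zfp2, Zfp354b and Zfp354a lie within 266 kb of chromosome 11 (50809085 to 51074799, regions included), with Grm6 and a run of olfactory receptor genes among the genes between them. Zfp354a is also known as Kid1, a KRAB repressor described in kidney. H3K9me3 islands covered 160, 170 and 154 kb of the cluster in B16 control and 157, 160 and 177 kb in B16 KO libraries. In MC38 they covered 24.6, 41.8 and 38.4 kb in control and 18.8, 33.4 and 48.6 kb in KO libraries. The B16 libraries of both genotypes thus covered several times more of the cluster than any MC38 library, and Setdb1 KO left the covered length of the cluster overlapping in both lines.

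Within the cluster the genes differed. Zfp354c held 110, 51.1 and 63.9 RPM of H3K9me3 in B16 control and 26.6, 23.5 and 43.2 RPM in KO libraries, and its H3K9Ac went from 15.0, 14.7 and 16.1 to 24.1, 23.2 and 26.5 RPM. At Zfp354b H3K9me3 was 58.7, 37.6 and 73.0 RPM in controls against 32.8, 30.2 and 26.7 RPM with KO, and H3K9Ac 6.74, 6.54 and 4.97 against 12.3, 12.2 and 10.4 RPM. At Zfp354a H3K9me3 was 28.9, 32.2 and 16.2 RPM in controls against 2.98, 0 and 11.4 RPM with KO, and H3K9Ac 9.76, 8.16 and 13 against 17.8, 20 and 17.8 RPM. None of these 6 differences passed (edgeR adjusted p = 1 for each apart from 0.69 for H3K9me3 at Zfp354b). Zfp2 had less H3K9me3 in every B16 KO library, at 105, 75.3 and 91.3 RPM against 173, 113 and 150 RPM in controls (edgeR adjusted p = 0.65), but its H3K9Ac overlapped, at 5.59, 5.19 and 13.4 against 5.63, 4.87 and 3.88 RPM. At Zfp454 and Zfp879 H3K9me3 overlapped between the groups: Zfp454 held 162, 120 and 111 RPM in controls against 121, 115 and 124 RPM with KO. Zfp879 held 108, 92.8 and 99.1 RPM in controls against 63.7, 90.8 and 95.7 RPM with KO. Zfp454 had H3K9Ac in 1 B16 control library only, at 6.94 RPM.

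**Figure D4:**
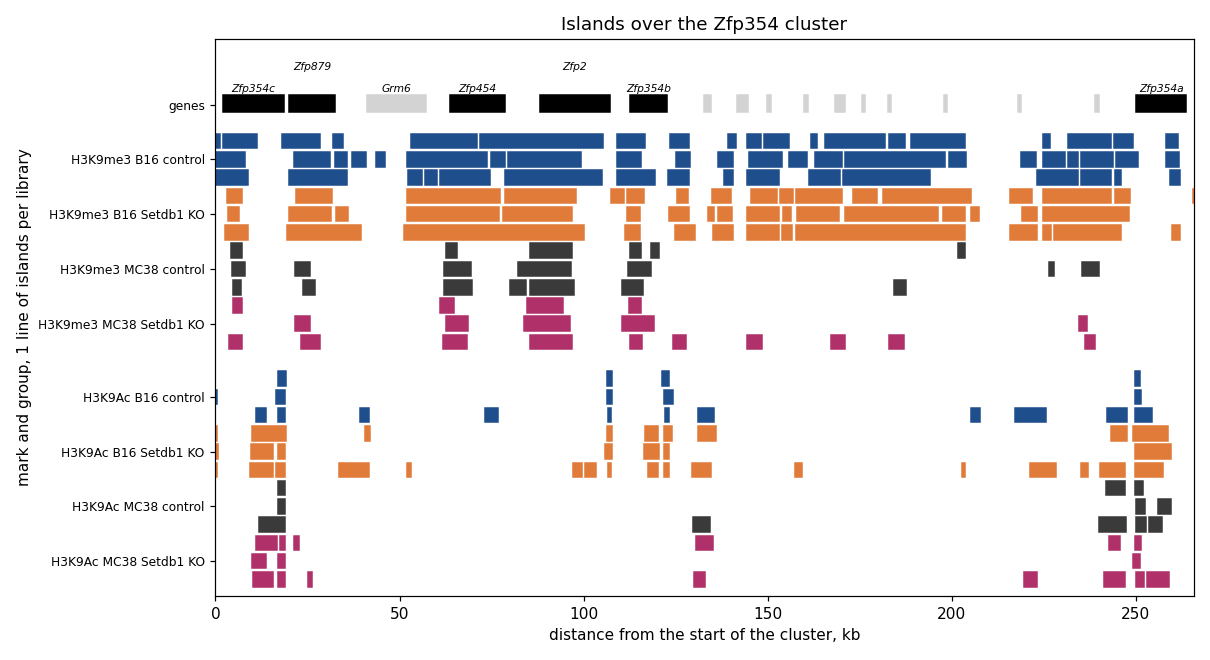
Islands of H3K9me3 and H3K9Ac in each of the 24 libraries (1 line per library) over the Zfp354 cluster, by distance in kb from its start; black boxes are the 6 zinc finger genes and grey boxes other genes. H3K9me3 fills 154 to 177 kb in the B16 libraries and at most 48.6 kb in the MC38 libraries.

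The control lines differed at more of these genes than the genotypes did by edgeR. For H3K9me3, 2 of the 56 genes were lower in MC38 control (4.31% of all regions) and none higher (2.82%) by edgeR. At an unadjusted p under 0.05, 9 were lower (16.1%, against 14.4% of all regions) and 2 higher (10.4%). DESeq2 called 14 of 50 lower (28%, against 18.1% of all regions and 9.04% of the other numbered Zfp genes) and 2 higher (15.6%). Zfp800, known as a repressor in the formation of gut hormone cells, held 800, 716 and 766 RPM in B16 control and 59.5, 128 and 124 RPM in MC38 control libraries. All MC38 values were below all B16 values (log2 -2.87 ± 0.62, edgeR adjusted p = 0.0185), but the adjusted p was 0.0718 without MC38 control replicate 1, 0.059 without replicate 3 and 0.3 with stricter islands. Its H3K9Ac was also lower in MC38, at 11.4, 15.9 and 11.7 RPM against 87.0, 92.6 and 104 RPM (log2 -2.86 ± 0.54, edgeR adjusted p = 0.0048). In B16 control the marks lay apart along Zfp800: H3K9me3 covered 112 kb and H3K9Ac 41.8 kb of its 191.8 kb grid, with 1.8 kb in common, and H3K9Ac lay in bins 8 to 10 by the strand of the table.

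Zfp735 was the other gene called. It held 31.5, 33.7 and 24.6 RPM of H3K9me3 in B16 control and none in MC38 control libraries, and no library had an H3K9Ac island (edgeR adjusted p = 0.040). The call ended when any 1 library other than MC38 KO replicate 3 was left out, with an adjusted p of 0.0515 to 0.106. In MC38 KO, Zfp735 had islands of 31.6, 50.6 and 0 RPM, higher values that did not pass edgeR (adjusted p = 0.43) but were called by DESeq2. Without MC38 KO replicate 3, the library at 0, the edgeR adjusted p was 0.00949 in MC38 and 0.0173 for the difference between the lines in the KO effect. A further 5 genes of the set, together with Zfp735 and Zfp783, had H3K9me3 in all 3 B16 control and no MC38 control library: Zfp746, a target of the ubiquitin ligase Parkin, Zfp354a, Zfp385c, Zfp41 and Zfp7. These 7 genes are 12.5% of the 56 tested, against 9.93% of all regions, and no gene showed the converse (5.34% of all regions). In all, 17 of 56 genes had every MC38 control below every B16 control library (20.7% of all regions) and 3 had every one above (13.6%), Zfp33b, Zfp638 and Zfp804b.

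Zfp804b, with a region of 579 kb, was uneven between libraries of a group. Its H3K9me3 was 294, 177 and 640 RPM in MC38 controls against 2133, 900 and 71.2 RPM with MC38 KO. The highest value lay in replicate 1, the library with the largest covered length, and the lowest in replicate 3, the library with the smallest; the part of covered length was not tested. In B16 it was 140, 0 and 0 RPM in controls against 255, 24.2 and 28.3 RPM with KO, so the groups overlapped in both lines. H3K9Ac was called there in 1 of 12 libraries.

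For H3K9Ac, 30 of the 101 genes differed between the control lines by edgeR, 12 with stricter islands (9 of them among the 30) and 49 by DESeq2 (all 30 among them). MC38 was lower at 19 (18.8%, against 9.59% of all regions) and higher at 11 (10.9%, against 9.8%). DESeq2 called 33 lower (33.7%, against 17.5% of all regions) and 16 higher (16.3%, against 17.8%), DESeq2 size factors in edgeR gave 18 lower and 12 higher, and the replicate block 28 and 17. Scaling by total island reads gave 12 lower (11.9%, against 8.53% of all regions) and 12 higher (11.9%, against 9.57%), and stricter islands 8 lower (8.25%, against 8.45%) and 4 higher (4.12%, against 7.5%). The excess of lower over higher calls was thus absent with total reads as the scale, and the share of lower calls was that of all regions with stricter islands. Without B16 control replicate 1, 19 calls were left. The 15 lower genes with islands in both lines were 0.24 to 2.86 lower on the log2 scale, and the 11 higher genes 0.53 to 1.78 higher.

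Of the lower genes, 4 had no H3K9Ac island in any MC38 control library. Zfp422, known as Krox-26 from the developing tooth, held 27.5, 33.8 and 18.1 RPM in B16 control (edgeR adjusted p = 0.00011). Zfp354b held 4.97 to 6.74 RPM (edgeR adjusted p = 0.00065) and Zfp2 held 3.88 to 5.63 RPM (edgeR adjusted p = 0.0021). Zfp518b held 6.94, 12.4 and 9.25 RPM (edgeR adjusted p = 0.011) but had islands of 6.20 and 4.45 RPM in 2 MC38 KO libraries. Zfp422 also had none in MC38 KO libraries, while B16 KO libraries held 27.4, 25.2 and 32.8 RPM, and its whole 9 kb region lay under H3K9Ac in B16. No library had H3K9me3 at Zfp422, whereas Zfp2 and Zfp354b carried H3K9me3 in all 6 MC38 libraries, at 74.4 to 108 RPM for Zfp2.

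Zfp467, a regulator of the choice between fat and bone cell fates, was lower in MC38 at 14, 11.7 and 13.9 RPM against 44.1, 36.4 and 51.2 RPM (log2 -1.73 ± 0.15, edgeR adjusted p = 0.00012). It was also the 1 gene with less H3K9Ac in every MC38 KO library, at 9.02, 9.99 and 11.2 RPM. Part of Sspo lies in its region. Zfp207, the spindle protein BuGZ, had 44.6, 35.8 and 38.4 RPM against 79.9, 77.3 and 66.7 RPM (log2 -0.91 ± 0.13, edgeR adjusted p = 0.0011). Zfp451, a SUMO ligase, had 74.6 to 87.9 RPM in MC38 and 115 to 136 RPM in B16 control libraries (edgeR adjusted p = 0.0032).

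Among the higher genes, Zfp395 held 87.7, 83.0 and 78.4 RPM in MC38 control and 31.8, 23.2 and 35.8 RPM in B16 control libraries (log2 1.46 ± 0.15, edgeR adjusted p = 0.00021). Part of Pnoc, the prepronociceptin gene, lies in its region. Zfp503, known as Nolz1 from the developing striatum, had 31.2, 23.8 and 14.4 against 8.05, 6.22 and 5.97 RPM (log2 1.78 ± 0.29, edgeR adjusted p = 0.0021). Zfp644, a partner of the H3K9 methyltransferase G9a, had 58.4, 92.7 and 66.4 against 30.8, 39.7 and 28.9 RPM; its edgeR adjusted p was 0.013, and 0.0504 without B16 control replicate 1. Zfp248 and Zfp783 were also higher in MC38 control (log2 0.86 ± 0.15 and 0.53 ± 0.12, edgeR adjusted p = 0.0030 and 0.010), as was Zfp597 (log2 0.81 ± 0.19, edgeR adjusted p = 0.014). With stricter islands Zfp248, Zfp783, Zfp395, Zfp597, Zfp207 and Zfp451 no longer passed (edgeR adjusted p = 0.0996, 0.122, 0.108, 0.384, 0.0693 and 0.157). Zfp91, a ubiquitin ligase of NF-kB signalling, was higher by 0.90 ± 0.24 (edgeR adjusted p = 0.025). Zfp281, Zfp148 and Zfp521 did not pass (edgeR adjusted p = 0.82, 0.74 and 0.20).

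**Figure D5:**
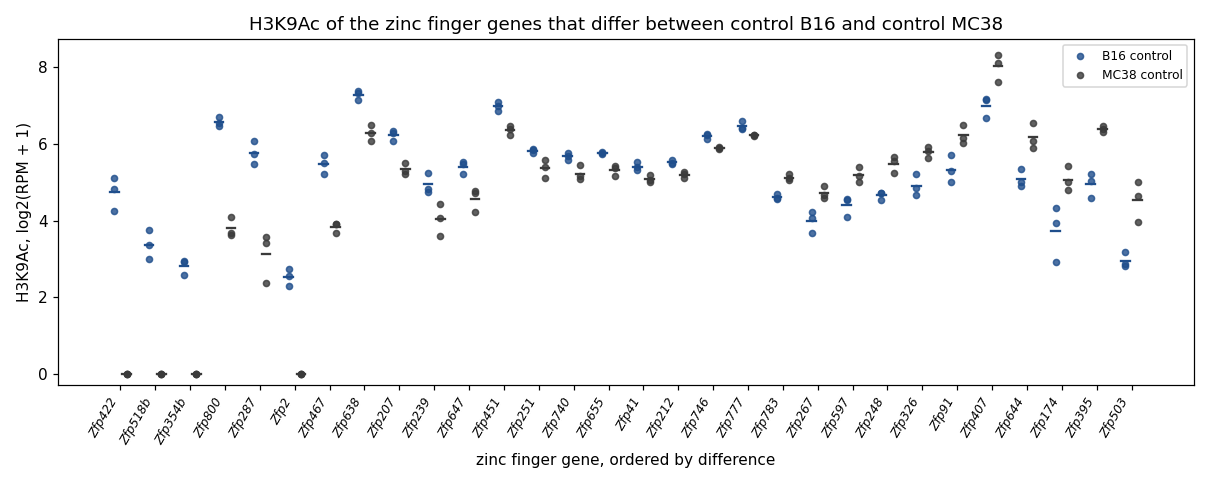
H3K9Ac, as log2 of RPM plus 1, in the 3 B16 and 3 MC38 control libraries for the 30 zinc finger genes that passed edgeR, ordered by the difference of means; points are libraries and bars their means. Zfp422, Zfp518b, Zfp354b and Zfp2 sit at 0 in all MC38 control libraries.

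H3K9me3 was found both at genes with another numbered Zfp gene within 100 kb and at genes without one. Of 37 genes with another numbered Zfp gene within 100 kb, 11 had an H3K9me3 island in all 3 B16 control libraries, 7 lay lower in B16 KO without overlap among 21 tested (9.44% of all regions), and 11 had no island in any library. Of the 66 genes without such a neighbour these counts were 16, 10 of 35 and 27. The 66 include Zfp354a of the chromosome 11 cluster, which had no numbered Zfp gene within 100 kb. These are descriptions with no test. The regions of 31 genes also held part of another coding gene, and those of 12 held part of another Zfp gene, so that their reads cannot be assigned to 1 gene.

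The machinery of KRAB repression was read in the same fits, from a list of 27 genes of which 26 matched the table (Fam208a is the older symbol of Tasor). For H3K9me3 11 were tested and none passed in any of the 4 comparisons. At an unadjusted p under 0.05, 2 of the 11 were lower in B16 KO (4.1% of all regions) and 2 in MC38 KO (4.16%), and DESeq2 called 1 of 8 lower in both lines (4.56% and 5.12%). In 5 of the 11 every B16 KO library lay below every control (9.44% of all regions): Atf7ip, the partner of SETDB1, Resf1, Hdac2, Morc2a and Zfp809, which silences murine leukaemia virus. Atf7ip held 102 ± 25.3 RPM in controls against 16.5 ± 5.22 RPM with KO. In MC38 none of the 11 lay below without overlap (1.73%) or above (0.596%). For H3K9Ac 26 were tested, and none passed edgeR for Setdb1 KO; at an unadjusted p under 0.05, 2 were higher in B16 KO (2.51%) and none differed in MC38 KO, and DESeq2 called 1 higher in B16 (1.85%) and none in MC38. In 5 of the 26 every B16 KO library had more H3K9Ac than every control, Atf7ip, Hdac1, Morc2a, Morc3 and Zfp809 (4.73% of all regions), and in MC38 this held for Setdb1 alone (1.92%). Between the control lines 3 were higher in MC38 by edgeR, Setdb1, Hdac1 and Tasor (9.8% of all regions), and 2 were lower, Uhrf1 and Atrx (9.59%), counts near the shares of all regions.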

How the data were processed

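H3K9me3 and H3K9Ac were mapped in 24 libraries; 4 input samples were not used here. The submitters' processing notes name cutadapt, Bowtie2 2.1.0, the mm10 build, deepTools 3.1.1, SAMtools 0.1.8 and, for the islands, SICER 1.1 (200 bp windows, 600 bp gaps and an FDR of 0.05, per the file names). The deposited values are read counts per island, unscaled, and depth differed between libraries. Island reads were apportioned by overlap to gene regions, as if even along each island, and rounded. RPM values are reads per 1000000 counted reads in the gene regions tested, after TMM scaling. Tests used edgeR 4.0.16 (quasi-likelihood, 12 libraries of a mark in 1 fit, Benjamini-Hochberg over all regions), with DESeq2 1.42.0 and limma 3.58.1 (log2 of RPM plus 0.5) beside it. Only the edgeR fit was also run on simulated counts. These had 1 fixed spread and lacked the zeros of thresholded islands, so they check the code and not its behaviour on these data. Genes and lists were chosen with earlier results of these data known; genes named singly are those called, those with the smallest p per comparison, the highest and lowest per kb, and a few of known role, and others were chosen after their values were seen. Same-numbered KO and control H3K9Ac libraries deviated together (r of 0.27, 0.53 and 0.50 in B16 and 0.16, 0.50 and 0.39 in MC38), so the numbers were taken to pair them. Those of H3K9me3 did not all do so. The main tests and the counts of separated libraries did not use this pairing, which entered only as the replicate block. No 2 libraries of a group shared more than 0.0494% of their islands with identical bounds and counts.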

Additional observations from a re-analysis of the deposited data

How the results depend on the processing

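In B16, the genes with less H3K9me3 in every KO library numbered 9 with stricter islands and 17 to 26 with 1 library left out, and those with more numbered 1 and 0 to 3. In MC38 the genes with less H3K9me3 numbered 0 with DESeq2 size factors, 1 with total reads as the scale, 1 with stricter islands, 0 without the flanks and 2 to 7 with 1 library left out, and those with more 1 with stricter islands and 0 to 4. For H3K9Ac in B16, stricter islands gave 2 lower and 5 higher genes, and leaving out 1 library 7 to 13 and 13 to 24. In MC38, 2 were lower with stricter islands, 3 without the flanks and 1 to 7 with 1 library left out, and 3 to 16 were higher. DESeq2 called 6, 5 and 8 genes for H3K9me3 (B16, MC38, difference of the KO effects) and 4, 2 and 5 for H3K9Ac, where edgeR called 0; with 1 library left out edgeR called 0 to 1, and 0 to 0 for H3K9Ac in B16. Between the control lines DESeq2 called 16 genes for H3K9me3 and 49 for H3K9Ac, stricter islands 0 and 12, and edgeR with 1 library left out 0 to 2 and 19 to 32. The difference in KO effect at Zfp735 (H3K9me3) turned to -1.72 with stricter islands. Leaving out libraries for the counts of separated genes was chosen after seeing the data, and can only keep or raise such a count. The cause of the other moves was not tested. With the replicate number as a block, 0 genes were called for Setdb1 KO in either mark and line, as without it. The replicate block took the H3K9me3 calls between the control lines from 2 to 0 and the H3K9Ac calls from 30 to 45, 30 of them shared. Same-numbered controls of the 2 lines deviated together weakly, with r of 0.13, 0.12 and 0.03 for H3K9me3 and 0.09, 0.22 and 0.22 for H3K9Ac. Other-numbered controls had r of 0.01 at most. Whether the numbers pair the libraries across the lines was not tested. At an unadjusted p under 0.05, edgeR on the 6 libraries of a line alone took the H3K9me3 genes from 4 to 10 of 60 in B16, all lower, and from 4 to 1 of 40 in MC38, a higher gene. For H3K9Ac it gave 14 in B16 and 2 in MC38, against 10 and 3. The shares of all regions were not counted in these fits. Of 780 values of single named genes under the alternatives, 730 kept their direction and side of the threshold, 23 no longer passed, 26 newly passed and 1 reversed. This tally is a weak check, since no gene passed for Setdb1 KO in the main fits and could lose its call. Values without an adjusted p or with a log2 difference of 0 were left out of it. Islands are thresholded, so a weak mark below the threshold is not measured.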
